A study of Mus musculus with 4 samples.

Results

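The acute phase response is the rapid change in plasma proteins that the liver makes during infection or injury. Hepatocytes raise the output of the positive acute phase proteins after interleukin 6, interleukin 1 and glucocorticoids reach them, through the factors STAT3, C/EBP and NF-kB acting at the promoters, and lower the output of the negative ones such as albumin. The genes described here are the orosomucoids *Orm1*, *Orm2* and *Orm3*, which encode plasma carriers of small lipophilic molecules, the serum amyloid A genes *Saa1*, *Saa2* and *Saa4*, whose products travel on high-density lipoprotein, and 4 others of the same response: *Hp* (haptoglobin, which binds free haemoglobin), *Hpx* (hemopexin, which binds free haem), *Lcn2* (lipocalin 2, which binds bacterial iron carriers) and *Itih4* (an inter-alpha-trypsin inhibitor heavy chain family member). They were chosen by name, 10 of the 20642 gene symbols in the data, with the promoter-proximal rise of *Orm3* already known, so all values of *Orm3* below are a description with no test. The other members and the gene lists set beside them were also chosen with earlier results of these data known. Their counts against all active genes are therefore descriptions, and the adjusted p-values of single genes do not allow for that choice. All 10 had 1 transcript each in the data, and 8 passed the activity filter that left 12705 genes: *Orm2* and *Saa2* did not.

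PRO-seq, which maps engaged RNA polymerases by letting them add biotin-labelled nucleotides in isolated nuclei, was made from livers of C57BL/6 mice at day 14 after birth, with 2 wild-type (WT) and 2 *Hdac3* knockout (KO) libraries. WT mice were *Alb-Cre*+ *Hdac3*+/+ and KO mice were *Alb-Cre*+ with *Hdac3* fl/- or fl/fl, so both groups carried Cre driven by the albumin promoter, which acts in hepatocytes. The other cells of the liver keep *Hdac3*, but in fl/- mice they too carry the null allele (-), unlike in WT. Livers of several mice were combined before the nuclei were taken, and the labels do not say which of both KO genotypes a library held. *Hdac3* encodes histone deacetylase 3, the catalytic subunit of a corepressor complex. For each gene, reads were taken in the 50 bp window around the start with the most reads (promoter-proximal region) and from 1 kb after the start to the end of the gene (gene body), leaving out what lies between, and the pausing index is the density in the first divided by that in the second.

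The 3 orosomucoid genes lie side by side on the plus strand of chromosome 4 in mm10, *Orm1* at 63344556 to 63348163, *Orm3* at 63356069 to 63359506 and *Orm2* at 63362449 to 63365877. The serum amyloid genes share a stretch of chromosome 7, with *Saa4* at 46727992 to 46732603 and *Saa1* at 46740497 to 46743181 on the minus strand and *Saa2* at 46751833 to 46754313 on the plus strand. *Hpx* is elsewhere on chromosome 7, at 105591611 to 105600116, *Hp* is on chromosome 8 at 109575128 to 109579172, *Lcn2* on chromosome 2 at 32384637 to 32387739, and *Itih4* on chromosome 14 at 30886476 to 30901986. None of the 10 overlaps another listed gene. The copies are alike: the spliced transcripts of *Orm1* and *Orm2* are identical at 705 of 775 aligned positions (91.0%), *Orm1* and *Orm3* at 86.4%, *Orm2* and *Orm3* at 88.3%, and *Saa1* and *Saa2* at 93.9%, or 96.7% between versions of their transcripts that keep introns. Because reads with low mapping quality were removed by the authors, reads from stretches that copies share are missing from both, and levels of the *Orm* genes and of *Saa1* and *Saa2* are uncertain in that respect.

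Promoter sequences of 8 of the 10 genes matched by symbol in the RefSeq set for GRCm38.p6 (the assembly of mm10), and *Orm1* and *Hp* did not. The 200 bases before the start that this set gives are shown for genes of the clusters of close copies, *Orm3* and *Orm2* in the orosomucoid cluster and *Saa4*, *Saa1* and *Saa2* in the amyloid cluster, and for *Itih4*. Capitals mark matches to TTGCNCAA on either strand (a C/EBP motif), to TTCNNNGAA (a STAT motif) and to TATAAA (the TATA box) on either strand.
Orm3: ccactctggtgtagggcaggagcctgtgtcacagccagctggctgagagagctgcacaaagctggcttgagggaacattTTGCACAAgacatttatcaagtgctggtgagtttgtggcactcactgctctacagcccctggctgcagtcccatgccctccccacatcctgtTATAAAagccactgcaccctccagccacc
Orm2: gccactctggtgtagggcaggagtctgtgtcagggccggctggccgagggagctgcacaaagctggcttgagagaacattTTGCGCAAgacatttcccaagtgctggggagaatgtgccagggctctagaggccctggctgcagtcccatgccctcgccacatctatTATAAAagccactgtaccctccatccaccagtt
Saa4: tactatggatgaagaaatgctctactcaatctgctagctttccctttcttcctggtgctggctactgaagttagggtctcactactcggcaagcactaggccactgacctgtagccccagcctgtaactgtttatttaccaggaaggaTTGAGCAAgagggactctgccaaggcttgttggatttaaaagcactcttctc
Saa1: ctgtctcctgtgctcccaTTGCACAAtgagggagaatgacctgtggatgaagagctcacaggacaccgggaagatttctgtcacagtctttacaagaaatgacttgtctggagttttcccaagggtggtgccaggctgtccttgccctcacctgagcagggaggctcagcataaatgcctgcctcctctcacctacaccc
Saa2: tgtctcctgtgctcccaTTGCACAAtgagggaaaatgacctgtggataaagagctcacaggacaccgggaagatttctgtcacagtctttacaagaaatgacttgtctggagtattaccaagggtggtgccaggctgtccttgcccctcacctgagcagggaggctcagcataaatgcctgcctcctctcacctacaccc
Itih4: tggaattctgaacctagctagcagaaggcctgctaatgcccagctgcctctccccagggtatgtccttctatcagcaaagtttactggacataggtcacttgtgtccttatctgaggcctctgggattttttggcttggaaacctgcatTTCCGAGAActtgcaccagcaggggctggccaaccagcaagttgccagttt

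These windows are chr4:63355958-63356157 and chr4:63362249-63362448 on the plus strand, chr7:46732604-46732803 and chr7:46742981-46743180 on the minus strand, chr7:46751633-46751832 on the plus strand and chr14:30886276-30886475 on the plus strand. The start used there is the outer end of the gene span given above except in *Orm3*, where it lies 89 bases inside the span, and in *Saa1*, where it lies 201 bases inside, so that the windows of these 2 genes fall partly or wholly within the longer span. The windows of *Orm2* and *Orm3* are 84.9% identical, and those of *Saa1* and *Saa2* are 97.0% identical. Counted from the start of the promoter set, the C/EBP letters lie at -121 to -114 in *Orm3* and at -120 to -113 in *Orm2*, where they differ at the free base, and at -182 to -175 in *Saa1* and -183 to -176 in *Saa2*. In *Saa4* they lie close to the start, at -52 to -45, on the minus strand relative to the gene. In the 250 bases before the start, the C/EBP letters were found in 6 of the 8 promoters (*Lcn2*, *Orm2*, *Orm3*, *Saa1*, *Saa2*, *Saa4*) and in 2.61% of all 32817 promoters searched. The letters of the STAT motif were found in *Itih4*, at -51 to -43, against 7.01% of all promoters, TATAAA in *Orm2* and *Orm3* against 12.4%, and the letters of an NF-kB motif (GGGAN followed directly by TTTCC, either strand) in none of the 8 against 0.357%. The letters searched were chosen with these promoters in view, and no searched motif overlaps another in the printed windows.

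Between 16628518 and 26190040 reads per library were counted on genes, and the promoter-proximal share of them was 10.3% and 9.38% in WT and 13.6% and 16.99% in KO. Over the 12705 active genes the median log2 fold change (KO over WT) was 0.56 in the promoter-proximal region, -0.09 in the gene body and 0.61 for the pausing index, so promoter-proximal changes below are also given relative to that median. *Hdac3* itself had gene body values of 665 and 648 in WT and 609 and 582 in KO, a log2 fold change of -0.14 (SE 0.13, limma adjusted p = 0.413). Those reads are counted over the gene body as a whole, not over the deleted part, and so do not check the deletion. Summed gene body values of the 8 hepatocyte markers were 306454 and 313230 in WT and 146912 and 141595 in KO. In that region 6 of the 8 were called down, where 11.4% of all active genes were. There 8 of 9 stellate cell markers and 6 of 8 endothelial markers were called up, where 10.4% of all active genes were. None of 9 active Kupffer cell and macrophage markers was called in the gene body. Of 3 active cholangiocyte markers, *Sox9* fell there (-1.33), while *Krt19* (0.83) and *Spp1* (0.44) were not called. In the promoter-proximal region *Sox9* fell (-1.12) and *Krt19* rose (1.33). In tissue as a whole, fewer cells of a type and less transcription per cell cannot be told apart, and the part of these marker shifts in the changes below was not tested.

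In WT liver the 10 genes spanned more than 3 orders of magnitude in gene body density (normalized reads per kb). *Hp* stood at 1349 ± 129 (SD, n = 2), *Hpx* at 625 ± 113, *Saa4* at 389 ± 10.7 and *Itih4* at 344 ± 2.32, and the WT libraries of any of these 4 did not overlap those of the next. *Lcn2* was far lower, at 26.4 ± 4.98. *Saa1* at 5.36 ± 1.01, *Orm3* at 5.03 ± 5.31 and *Orm1* at 2.92 ± 0.865 came next, with the *Orm3* libraries spanning those of the other two. *Orm2* at 0.412 and *Saa2* at 0.337 rested on 2 reads and 1 read over both libraries. In KO liver the first 4 kept their order, with *Hp* at 945 ± 92.7, *Hpx* at 691 ± 15.2, *Saa4* at 143 ± 6.12 and *Itih4* at 123 ± 1.36, and *Orm1* came next at 22.9 ± 4.04, above *Orm3* at 13.5 ± 0.758 and *Lcn2* at 11.6 ± 0.0355. Summed over the 10 genes, gene body values were 14914 and 15568 in WT and 10159 and 10804 in KO, of which *Hp*, *Hpx*, *Itih4* and *Saa4* made up 98.7% to 99.5% in each library.

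**Figure D1:**
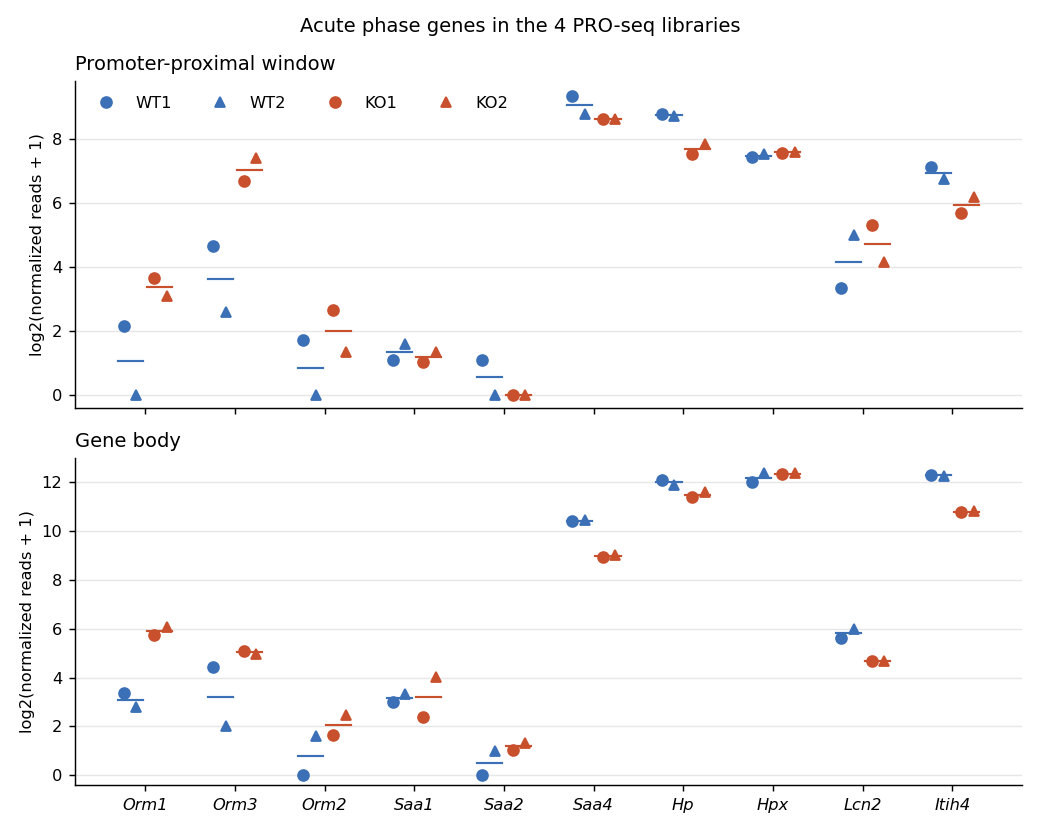
Promoter-proximal (top) and gene body (bottom) values of the 10 genes on a scale of log2(normalized reads + 1). Blue points are the WT libraries, red points the KO libraries, circles replicate 1, triangles replicate 2, and bars the group means. Gene body points of *Orm1* lie higher in KO, those of *Saa4*, *Lcn2* and *Itih4* lie lower, and those of *Hpx* overlap.

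Changes were tested with limma on log2(normalized value + 1) over all active genes, and a gene was called where the Benjamini-Hochberg adjusted p was below 0.05 and the log2 fold change exceeded 0.6 in size. In the gene body, 2 of the 8 active genes were up (*Orm1* and *Orm3*, both as descriptions) where 10.4% of all active genes were, and 3 were down (*Saa4*, *Lcn2*, *Itih4*) where 11.4% were. In the promoter-proximal region 2 were up (*Orm1*, *Orm3*) against 25.8% of active genes and 2 down (*Hp*, *Itih4*) against 2.2%. The median log2 fold change of the 8 was -0.23 in the gene body and -0.03 in the promoter-proximal region. The libraries of both groups did not overlap for 3 of the 8 in the promoter-proximal region with KO above WT (61.9% of all active genes) and for 3 with KO below (6.72%), and in the gene body for 2 with KO above (27.6%) and 4 with KO below (42.8%). *Orm1* passed the activity cutoff of 4 reads per kb only through its KO libraries, so its values below are given as a description with no test, and the counts and medians over the 8 genes are descriptions too. The member nearest above that cutoff was *Saa1*, with means of 5.36 reads per kb in WT and 6.55 in KO, and the nearest below it was *Orm2*, far lower at 0.412 and 1.37.

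**Figure D2:**
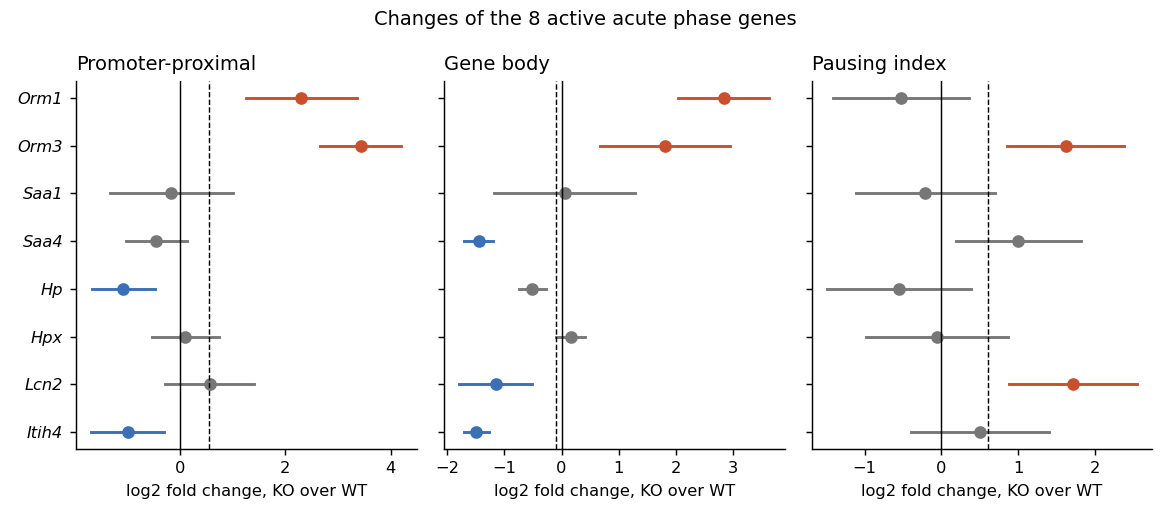
Log2 fold change (KO over WT) of the 8 active genes in the promoter-proximal region, the gene body and the pausing index, with 95% intervals from limma. Red marks genes called up, blue genes called down and grey genes not called, and the dashed line is the median of all 12705 active genes. *Orm1* and *Orm3* are the genes to the right in both regions, and *Itih4* is to the left in both. The colours and intervals of *Orm1* and *Orm3* are descriptions with no test.

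Among the orosomucoids, *Orm1* and *Orm3* had higher values in KO. The gene body values of *Orm1* were 9.18 and 6 in WT and 52.0 and 66.8 in KO, from 14 reads in both WT libraries together and 93 in both KO libraries. Every KO value was above every WT value, and the log2 fold change was 2.83 (SE 0.38), or 2.56 to 3.10 with single libraries left out. The scaled ratio of these reads was 7.76. Its promoter-proximal values were 3.44 and 0 in WT and 11.7 and 7.59 in KO, a log2 fold change of 2.31 (SE 0.54), or 1.75 relative to the median. That region held only 3 reads in WT and 16 in KO, whose ratio after scaling was 6.23, so it rests on very few reads. WT replicate 2, with no read there, weighed most: without it the promoter-proximal change was 1.23, and without WT replicate 1 it was 3.38.

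*Orm3* had the highest promoter-proximal values of the cluster, 24.1 and 5 in WT and 102 and 169 in KO. Both KO libraries were above both WT libraries, and the log2 fold change of 3.43 (SE 0.39), 2.87 relative to the median, was the highest of all active genes, which is how the gene came to be chosen. In its gene body the values were 20.7 and 3 in WT and 32.9 and 30.4 in KO, with a log2 fold change of 1.81 (SE 0.55). WT replicate 2 decided that value: without it the change was 0.59, and without WT replicate 1 it was 3.03. *Orm2* was barely read, with promoter-proximal values of 2.29 and 0 in WT and 5.30 and 1.52 in KO, and gene body values of 0 and 2 in WT and 2.12 and 4.55 in KO. The gene body of *Orm2* held 2 reads in WT and 5 in KO, a ratio of 2.92 with an exact 95% counting interval from 0.478 to 30.7, so no difference was detectable at this depth. Such an interval adds up the reads of a group and covers counting error only, not the spread between pools. These reads also carry no molecular identifiers, so repeated copies of 1 molecule could not be told apart.

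Of the serum amyloid genes only *Saa4* was read deeply enough to be measured closely. *Saa4*, the constitutive member of the family, had gene body values of 1352 and 1405 in WT and 490 and 521 in KO, well apart between the groups. It fell by 1.45 on the log2 scale (SE 0.12, limma adjusted p = 2.67e-09), and the fall ranged from -1.49 to -1.40 when single libraries were left out. Its promoter-proximal values were 653 and 441 in WT and 395 in each KO library. There the log2 fold change was -0.44 (SE 0.30, limma adjusted p = 0.233), and -1.002 relative to the median. With factors computed within that region, which bring the median of all active genes from 0.56 to about 0, *Saa4* was called down in the promoter-proximal region too (-1.01, limma adjusted p = 0.00276 with median-of-ratios factors).

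*Saa1* and *Saa2* encode the inducible forms, which the liver makes in large amounts during inflammation. *Saa1* had gene body values of 6.88 and 9 in WT and 4.24 and 15.2 in KO, with the KO libraries on both sides of the WT ones. Its log2 fold change was 0.05 (SE 0.59, limma adjusted p = 0.953) with a 95% interval from -1.18 to 1.28, so a change of 1 on the log2 scale either way is within the interval. *Saa2* had gene body values of 0 and 1 in WT and 1.06 and 1.52 in KO, and a promoter-proximal value above 0 in WT replicate 1 alone, 1.15 from a single read. Both inducible genes were thus close to the floor of 3 reads, 3.00 to 4.55 normalized reads depending on the library, in a tissue where *Saa4* was among the 201 densest active genes. RefSeq lists the symbols *Saa1* and *Saa2* as older names of each other, so they are identified here by position.

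*Hp* and *Hpx*, which bind haemoglobin and haem released from red cells, were the densest 2 of the 10 genes and changed unequally. *Hp* had promoter-proximal values of 442 and 425 in WT and 184 and 232 in KO, and the groups did not overlap. It fell there by 1.07 on the log2 scale (SE 0.31, limma adjusted p = 0.00534), which is -1.63 relative to the median. Without WT replicate 1 the change was -1.04 (limma adjusted p = 0.150) and without WT replicate 2 it was -1.09 (adjusted p = 0.159). Its gene body values were 4384 and 3830 in WT and 2679 and 3078 in KO, a log2 fold change of -0.51 (SE 0.11, limma adjusted p = 0.000827) that passed on p but not on size. It was called down in the gene body without WT replicate 2 (-0.61, limma adjusted p = 6.39e-05) and without KO replicate 2 (-0.61, adjusted p = 0.0108).

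*Hpx* had gene body values of 4090 and 5293 in WT and 5109 and 5270 in KO, and the KO values lay within the WT range. The log2 fold change was 0.16 (SE 0.12, limma adjusted p = 0.314), and its 95% interval ran from -0.09 to 0.40, which leaves out changes as large as the size threshold. Promoter-proximal values of *Hpx* were 173 and 183 in WT and 191 in both KO libraries, just above, with a log2 fold change of 0.10 (SE 0.32, limma adjusted p = 0.816), or -0.46 relative to the median. The sign of this small value turned with factors computed within the region (-0.47). Among erythroid markers *Slc4a1* (-1.40, SE 0.17, limma adjusted p = 5.30e-07) and *Klf1* (-1.32, SE 0.22, adjusted p = 3.69e-05) fell in the gene body, and their part in the values of *Hp* and *Hpx* was not tested.

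*Lcn2* is made by hepatocytes in the acute phase and also stored in neutrophil granules. Its gene body values were 48.2 and 63 in WT and 24.4 and 24.3 in KO, without overlap. It fell by 1.15 on the log2 scale (SE 0.31, limma adjusted p = 0.00451), and the call was kept without each of the 4 libraries. In the promoter-proximal region *Lcn2* had 9.18 and 31 in WT and 39.2 and 16.7 in KO, which overlap. The log2 fold change there was 0.56 (SE 0.43, limma adjusted p = 0.291), equal to the median of all active genes, and its sign turned without WT replicate 1 (-0.26) and without KO replicate 1 (-0.03). Of 12 neutrophil and precursor markers 7 were active, and 5 of these fell in the gene body, where 11.4% of all active genes fell. Among them were *Mpo* at -2.36, *Ltf* at -1.92, *S100a9* at -1.91 and *Ngp* at -1.86, while *Prtn3* (0.33) and *Csf3r* (0.23) were not called. In the promoter-proximal region *Prtn3* (1.58) and *Csf3r* (1.08) rose and 3 markers fell, against 25.8% up and 2.2% down over all active genes. The summed gene body values of that marker list were 878 and 1075 in WT and 758 and 588 in KO, no marker in the data was at 0 in all libraries, and their part in the fall of *Lcn2* was not tested.

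*Itih4* was lower in KO in both regions. Its gene body values were 5004 and 4956 in WT and 1765 and 1793 in KO. It fell by 1.48 on the log2 scale (SE 0.11, limma adjusted p = 2.23e-10), with changes from -1.50 to -1.47 when single libraries were left out. Promoter-proximal values were 139 and 106 in WT and 50.9 and 72.9 in KO, and the groups did not overlap. There it fell by 0.98 (SE 0.35, limma adjusted p = 0.0266), or -1.54 relative to the median. This promoter-proximal call was lost without any 1 of the 4 libraries: the change was -0.79 and the limma adjusted p 0.343 without WT replicate 1, -1.17 and 0.192 without WT replicate 2, -0.73 and 0.120 without KO replicate 1, and -1.24 and 0.0741 without KO replicate 2. With the replicate number as a block its adjusted p was 0.0733.

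**Figure D3:**
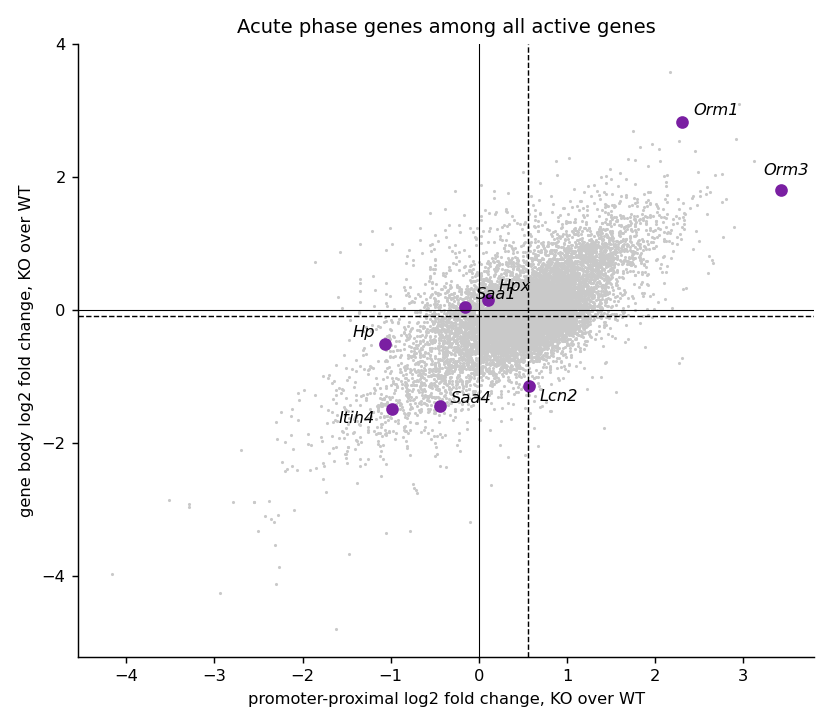
Gene body against promoter-proximal log2 fold change (KO over WT) for the 12705 active genes (grey) and the 8 active acute phase genes (purple). Dashed lines are the medians over all active genes, 0.56 and -0.09. *Orm1* and *Orm3* lie at the upper right edge, *Itih4*, *Hp* and *Saa4* at the lower left, and *Lcn2* lies on the promoter-proximal median with a gene body change of -1.15.

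For the pausing index, *Lcn2* and *Orm3* passed the thresholds, the latter as a description since its index rests on the promoter-proximal values by which it was chosen. Of the 8 genes 2 were up and 0 down, against 12.4% up and 0.519% down among all active genes, and at an unadjusted p under 0.05 again 0 of the 8 were down (with a pseudocount of 10, *Orm1* was called down, -1.23). The index of *Lcn2* was 8.01 and 20.7 in WT and 67.7 and 28.9 in KO, a log2 fold change of 1.71 (SE 0.43, limma adjusted p = 0.00427). That of *Orm3* was 54.8 and 78.3 in WT and 146 and 261 in KO, a log2 fold change of 1.62 (SE 0.39). With median-of-ratios factors within each region the changes were 1.09 for *Lcn2* and 1.01 for *Orm3*, neither was called, and 6 genes were up and 11 down among all active genes. The *Lcn2* call was also lost without WT replicate 1 (1.07, limma adjusted p = 0.384), without WT replicate 2 (2.35, adjusted p = 0.0569) and without KO replicate 1 (1.12, adjusted p = 0.0591).

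For the other 6 genes the index change was not called. *Saa4* had an index of 34.2 and 22.3 in WT and 57.1 and 53.7 in KO, a log2 fold change of 1.004 (SE 0.41, limma adjusted p = 0.0765). *Hp* had 6.14 and 6.76 in WT and 4.17 and 4.60 in KO, and its change of -0.55 (limma adjusted p = 0.374) lay opposite in sign to the median of all active genes. So did the changes of *Orm1* (-0.52, a description), *Saa1* (-0.21) and *Hpx* (-0.06). *Hpx* stayed between 5.19 and 6.36 in all libraries. *Itih4* had 8.04 and 6.20 in WT and 8.36 and 11.8 in KO, a change of 0.50 (limma adjusted p = 0.403).

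The genes next to each locus give the local setting. In the orosomucoid cluster, *Col27a1* (a fibrillar collagen gene) ends 9.57 kb before *Orm1* and *Akna* begins 1.25 kb after *Orm2*. Their gene body log2 fold changes were 0.45 (SE 0.12) for *Col27a1* and 0.25 (SE 0.11) for *Akna*, neither called, beside 2.83 for *Orm1*, although both rose in the promoter-proximal region, by 1.42 and 1.18, or 0.86 and 0.62 relative to the median. *Whrn*, the next gene, was not called in either region, and *Kif12* was not active. Around the amyloid genes, *Saal1*, *Hps5* and *Gtf2h1* had gene body changes from -0.38 to -0.05 and were not called there, beside -1.45 for *Saa4*. *Saa3*, an amyloid gene expressed outside hepatocytes as well, had gene body values of 21.8 and 10 in WT and 11.7 and 15.2 in KO with no call, and promoter-proximal values of 6.88 and 7 in WT and 1.06 and 3.04 in KO, where it fell by 1.46 (SE 0.54, limma adjusted p = 0.0299), or -2.02 relative to the median. Both KO values in that region are below the floor of 3 reads (3.18 and 4.55 normalized reads in these libraries), so that fall rests on very few reads.

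*Itih4* lies in a cluster of its own family. *Itih3* fell by 1.22 in the gene body (SE 0.11, limma adjusted p = 9.08e-09) and by 0.83 in the promoter-proximal region (SE 0.33, adjusted p = 0.0469), or -1.39 relative to the median. *Itih1* fell by 1.07 in the gene body (SE 0.11, limma adjusted p = 3.86e-08), with a promoter-proximal change of -0.72 that was not called (adjusted p = 0.0627), or -1.28 relative to the median. On the other side of *Itih4*, *Mustn1* (-0.22) and *Sfmbt1* (-0.33) were not called in the gene body. Beside *Lcn2*, *Slc25a25* (a mitochondrial carrier gene) fell by 1.64 and *Ptges2* (a prostaglandin synthase gene) by 0.66 in the gene body, while *Ciz1* and *1110008P14Rik* were not called. Of the 3 active genes flanking *Hp* none was called in the gene body, and *Txnl4b*, 1.08 kb away, rose by 1.30 in the promoter-proximal region (0.74 relative to the median), where *Hp* fell. Near *Hpx*, *Smpd1* (acid sphingomyelinase) fell by 0.76 in the gene body, and *Trim3* (0.53) and *Arfip2* (-0.26) were not called there.

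**Figure D4:**
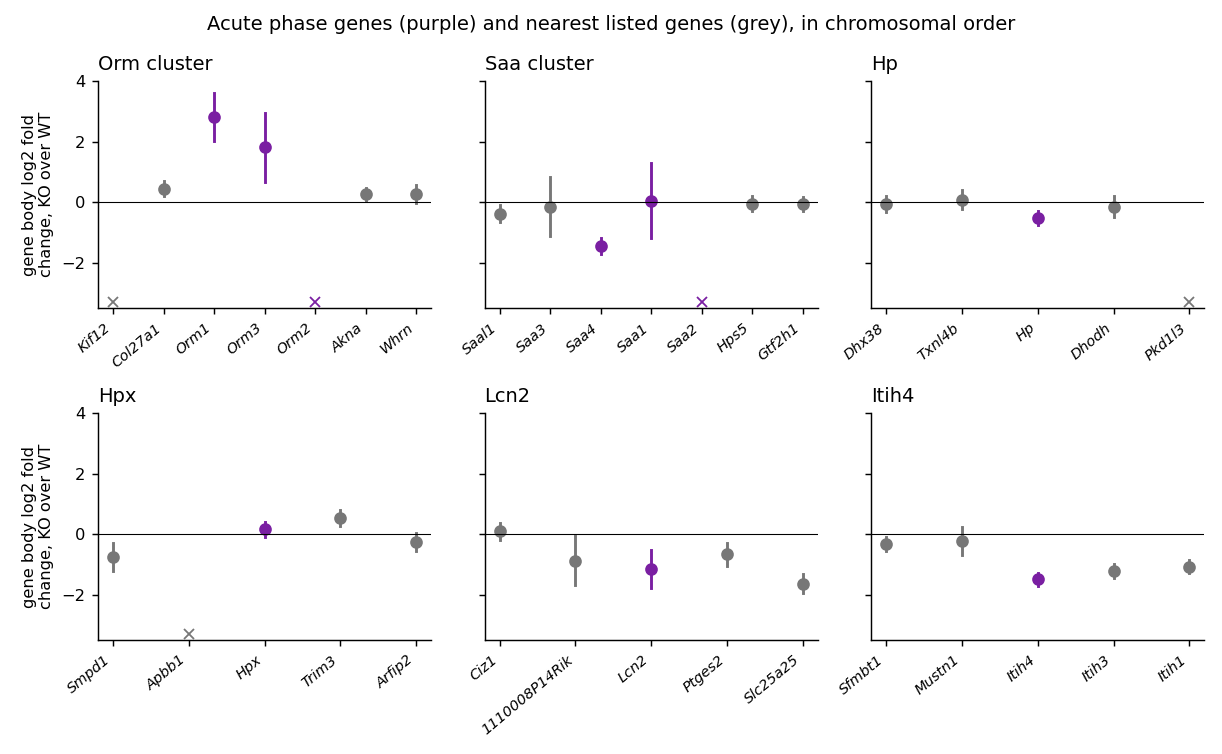
Gene body log2 fold change (KO over WT) with 95% limma intervals for the acute phase genes (purple) and the nearest listed genes on each side (grey), in order along the chromosome. Crosses at the foot mark genes that were not active and have no value. *Itih4*, *Itih3* and *Itih1* lie at -1.48, -1.22 and -1.07. *Orm1* (2.83) lies next to *Orm3* (1.81), and the active grey genes around both and around *Saa4* (-1.45) were not called.

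The deposited enhancer list holds 2282 intergenic enhancers, called from reads pooled over all 4 libraries and away from annotated genes. None of the 8 active genes was listed as the closest gene of an enhancer, where 1379 of all active genes (10.9%) were, and 8 genes are too few to read a difference from that share. The nearest enhancer centre was 106 kb from the start of *Lcn2*, 264 to 283 kb from the amyloid genes, 394 kb from *Hp*, 637 kb from *Hpx* and 3786 to 3804 kb from the orosomucoids. *Itih4* was tied by a chromatin contact database to 1 enhancer on another chromosome (chromosome 8, 120334388 to 120337006, closest gene *Gse1*), with contacts listed in Th1 cells, NSC and ESC, none of them liver.

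Of 30 other positive acute phase genes, 26 were active, and 15 of these fell and 2 rose in the gene body, where 11.4% of all active genes fell and 10.4% rose, with a median log2 fold change of -0.74 against -0.09 over all active genes. The serine protease inhibitors *Serpina3k* (-2.89, SE 0.15, limma adjusted p = 3.73e-12) and *Serpina3n* (-2.23, SE 0.13, adjusted p = 1.49e-11), the metal-binding *Mt1* (-2.27, SE 0.32, adjusted p = 3.34e-06) and C-reactive protein, *Crp* (-1.88, SE 0.21, adjusted p = 1.28e-07), fell most. The 2 that rose, named after their values were seen, were *Steap4* (0.88), a metal reductase, and *Pigr* (0.78), the receptor that carries IgA into bile. In the promoter-proximal region 9 fell and 2 rose (2.2% and 25.8% over all active genes), among them *Serpina3k* at -2.55 and *Crp* at -2.14, or -3.11 and -2.70 relative to the median. The 9 became 1 without WT replicate 1, 5 without WT replicate 2, 6 without KO replicate 1 and 4 without KO replicate 2. With factors computed within that region 16 fell and 0 rose.

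Most of the negative acute phase genes were called down in the gene body. All 11 were active, and 7 fell and 1 rose in the gene body, with a median of -0.94, where 11.4% of all active genes fell and 10.4% rose. In the promoter-proximal region 3 fell and 1 rose, against 2.2% and 25.8% over all active genes. *Apoa1* fell by 1.76 (SE 0.11, limma adjusted p = 3.94e-11), *Ahsg* (fetuin A) fell by 1.204 (SE 0.13, adjusted p = 5.68e-08) and *Apoa2* fell by 1.13 (SE 0.18, adjusted p = 2.84e-05). *Serpina6*, which encodes corticosteroid-binding globulin, had gene body values of 1249 and 1043 in WT and 3198 and 4122 in KO, and rose by 1.67 (SE 0.13, limma adjusted p = 5.34e-10) and by 1.79 in the promoter-proximal region, or 1.23 relative to the median. Falls were counted in 15 of 26 active positive genes and in 7 of 11 negative genes, beside 6 of 8 hepatocyte markers, among which *Alb* and *Apoa1* are also in the negative list *Serpina1a* in the positive one and *Hnf4a* in the cytokine list.

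Of 32 genes of the cytokine signals that drive the response, 31 were active. In the gene body 7 fell, where 11.4% of all active genes fell, and 4 rose, a share near the 10.4% of all active genes. The median was 0.17. *Il1rap*, the accessory chain of the interleukin 1 receptor, fell by 1.95 (SE 0.12, limma adjusted p = 2.14e-11), with 4806 and 4521 in WT and 1341 and 1078 in KO. *Il6ra*, the interleukin 6 receptor, also fell (-1.1995), as did *Hnf4a* (-1.53, SE 0.11, adjusted p = 2.61e-10) and *Cebpb* (-1.30, SE 0.20, adjusted p = 1.28e-05), which encodes a C/EBP factor. *Tnf* rose by 1.55 (SE 0.26, limma adjusted p = 3.97e-05), from 35.6 and 30 in WT to 95.5 and 100.2 in KO, and the oncostatin M receptor *Osmr* rose by 0.94. Promoter-proximal values rose for 12 and fell for 1 of the 31, against 25.8% up and 2.2% down over all active genes, with *Il1a* at 1.39, *Rela* at 1.29 and *Osmr* at 1.25 among those that rose and *Hnf4a* at -1.201 the gene that fell. Relative to the median these were 0.83, 0.73, 0.69 and -1.76. The 12 became 2 without WT replicate 1, 0 without WT replicate 2, 13 without KO replicate 1 and 1 without KO replicate 2. With factors computed within the region 2 rose and 4 fell.

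**Figure D5:**
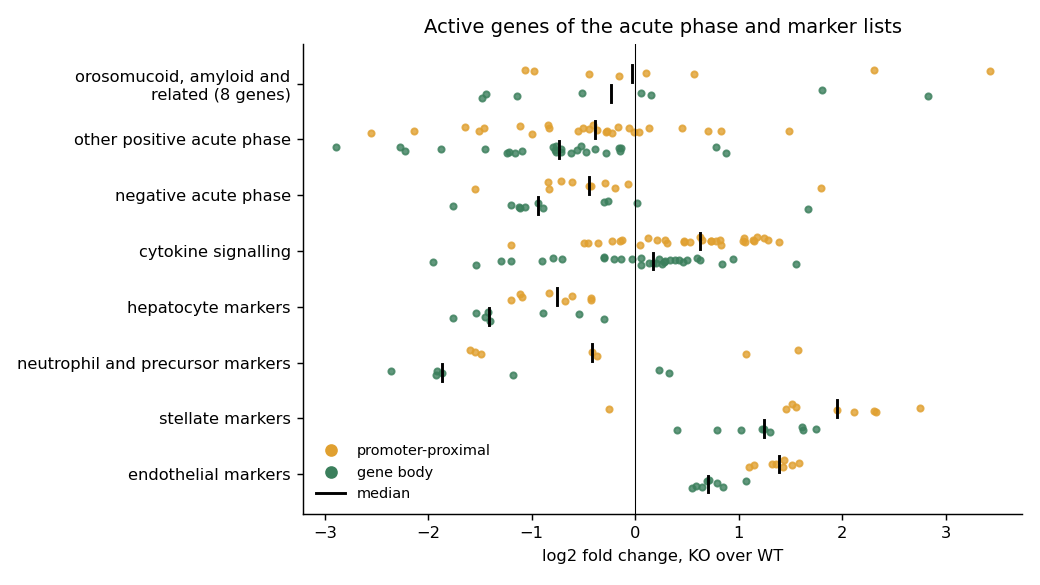
Log2 fold changes (KO over WT) of the active genes in 8 lists, with promoter-proximal values in yellow, gene body values in green and black bars for the medians. The gene body medians are -0.23 for the acute phase genes described here, -0.74 for the other positive and -0.94 for the negative acute phase genes. Stellate and endothelial markers lie mostly to the right and hepatocyte markers to the left.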

How the data were processed

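PRO-seq reads from 4 libraries (2 WT, 2 KO) were trimmed with cutadapt and aligned to mm10 with Bowtie2 by the authors, who removed reads of low mapping quality, counted reads per transcript and deposited normalized values, scaled by the uniquely mapped reads of each library. This deposited signal was divided by the factor of each library (1 to 1.52), which gave whole reads (within 0.01) for 100% of values, so the depth is known. Where a symbol had several transcripts, that with the highest promoter-proximal mean was used (20820 transcripts, 20642 symbols, 118 with more than 1). Active genes had promoter-proximal values above 0 and a mean gene body density over 4 reads per kb. Limma (version 3.58.1, trend, R 4.3.3) was fitted to log2(value + 1) over the 12705 active genes without a block, with Benjamini-Hochberg adjustment, and intervals are 95%. The pausing index was tested likewise, since tests on pooled reads would treat reads as replicates.

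Alternatives were pseudocounts of 0.1 and 10, no filter on activity, a cutoff of 10 reads per kb, median-of-ratios and TMM factors within each region, tests of the recovered reads with DESeq2 (1.42.0) and with edgeR's quasi-likelihood method (4.0.16), another transcript choice, no fold threshold, the replicate number as a block, and each library left out. The scripts were tested on simulated data. The labels do not tie WT and KO libraries of the same number to 1 animal or day. Per the study's methods each library came from a pool of separate mice, so p-values refer to differences between these pools. In the main promoter-proximal and pausing index fits the variance came wholly from the trend over all active genes. The spread of a single gene between pools therefore does not enter the SE and p-values there, whereas in the gene body it does in part. For *Hpx* in the promoter-proximal region the SE was 0.32, and 0.063 without a filter on activity. The members and lists were chosen with earlier results of these data known. Named genes are the 10 members, up to 4 called genes per list and region with the largest change, the nearest 2 listed genes on each side of each locus, and *Hdac3*; others are named with values where a count was small. The enhancer list holds positions and associated genes, with no values per library. Promoters are RefSeq's for GRCm38.p6, and transcript identities were aligned with Biopython (1.88) from GENCODE. The result for 1 listed marker gene is not reported here.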

Additional observations from a re-analysis of the deposited data

How the results depend on the processing

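Over the single-gene changes of the 8 active genes, 303 alternative values kept their direction and side of the thresholds, 37 lost the call, 8 gained it and 14 changed sign, none of these 14 called. *Saa4* and *Itih4* were called down in the gene body under all 17 settings, and *Lcn2* was called in 16 of 17, lost without a filter on activity. The values of *Orm1*, active only through its KO libraries, and of *Orm3*, chosen with its rise known, are descriptions here too. Their gene body changes ranged from 1.98 to 3.10 and from 0.59 to 3.03 over the settings. Without a filter on activity neither passed the thresholds there. The values that changed sign were the promoter-proximal change of *Hpx* (-0.47 with median-of-ratios and with TMM factors), the pausing index of *Itih4* (-0.14 with both) and of *Orm1* (1.03 with a pseudocount of 0.1). Among the fits without 1 library they were the promoter-proximal changes of *Lcn2* (lowest -0.26, highest 1.39) and *Saa1* (-0.40 to 0.085), the gene body changes of *Saa1* (-0.76 to 0.87) and *Hpx* (-0.029 to 0.34), and the pausing index of *Orm1* (-1.33 to 0.29), *Hpx* (-0.20 to 0.091) and *Saa1* (-0.88 to 0.46).

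Without a filter on activity 0 genes were called in the promoter-proximal region, listed or not (main 3282 up, 280 down), and in the gene body 0 of the members were up. There the other positive genes had 1 up and 4 down, the negative genes 0 up and 2 down, and the cytokine genes 0 up and 2 down. No pausing index was called then. With the 10 reads per kb cutoff *Orm3* was not active, and 1 member was up in each region and for the pausing index, with 1 other positive gene up in each region. Median-of-ratios factors gave 0 up and 16 down of the other positive genes in the promoter-proximal region (TMM 0 and 17), 8 of the negative genes down, and 2 up and 4 down of the cytokine genes. These same factors left 1 member up in the gene body and 0 for the pausing index, and over all active genes gave 634 up and 942 down (TMM 634 and 947) in the promoter-proximal region. DESeq2 left 1 member up in each region, *Orm1* having no adjusted p in the promoter-proximal one, and edgeR and DESeq2 each gave 1 other positive gene up there. Over all active genes edgeR called 3251 up and 265 down in the promoter-proximal region and 1329 up and 1454 down in the gene body, and DESeq2 2650 up and 168 down, and 1206 up and 1372 down. A pseudocount of 10 gave 1 other positive gene up in the promoter-proximal region and 1 member (*Orm1*) down in the pausing index. Without a fold threshold 8 cytokine genes were up in the gene body (2161 up and 2807 down over all active genes).

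Same-numbered libraries did not deviate together (correlation of deviations -0.105 in the promoter-proximal region and 0.0189 in the gene body), and they share only a number. With that number as a replicate block 1 member was down in the promoter-proximal region, 0 other positive genes were up and 1 negative gene was down (1772 up and 177 down over all active genes, and 186 up and 12 down for the pausing index). A crossed block, chosen after seeing the data, gave 5 negative genes down there and 4861 up and 399 down over all active genes. Without 1 library, members called ranged from 0 to 2 up and 0 to 1 down in the promoter-proximal region, from 1 to 2 up and 3 to 4 down in the gene body, and from 0 to 1 up for the pausing index. In the promoter-proximal region the other positive genes ranged from 0 to 1 up and 1 to 6 down, the negative genes from 0 to 1 down, and the cytokine genes from 0 to 13 up and 0 to 1 down (3 to 6 up in the gene body). The other positive genes ranged from 12 to 17 down in the gene body. These fits differ from the main one in their samples, genes, factors or model, and the cause of the shifts was not tested. Depth limits *Orm2*, *Saa1* and *Saa2*, which had at most 15 reads per region and group.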
